A study of Caenorhabditis elegans with 12 samples.

Results

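The mitochondrial ribosomal protein genes of Caenorhabditis elegans were taken as every gene whose symbol in the array's probe annotation begins with mrpl- (large subunit) or mrps- (small subunit), each read through its brightest probe set that names a single gene. This gave 59 genes, 34 of the large and 25 of the small subunit, among 17118 genes with such a probe set. RNA of whole worms was hybridised to 12 Affymetrix arrays, in 4 groups of 3 replicates that the labels call biological. The groups were wild type (strain N2) on control RNAi, wild type on spg-7 RNAi, atfs-1(tm4525) on control RNAi and atfs-1(tm4525) on spg-7 RNAi, the mutant being in the N2 background. All worms were synchronised by bleaching, grown in liquid culture on RNAi bacteria and collected at the L4 stage, the last larval stage. The series title asks about the transcriptional program that ATFS-1 directs during mitochondrial stress.

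Mitochondria translate a small set of respiratory chain subunits on ribosomes of their own, whose RNAs come from mitochondrial DNA and whose proteins are made in the cytosol from nuclear genes and imported. The small subunit decodes the messenger RNA, and the large subunit joins the amino acids and passes the new chain out through its exit tunnel. ATFS-1 is a bZIP transcription factor that is normally imported into mitochondria and degraded there, and that acts in the nucleus when import fails. spg-7 encodes a protease of the mitochondrial inner membrane, and its knockdown is a common way to cause mitochondrial stress in worms. In C. elegans the knockdown of mrps-5 and of other genes of this family is known to induce the mitochondrial stress response and to extend lifespan.

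The values are MAS5 signals on a linear scale, and all differences below are on the log2 scale with the standard error (SE) of a limma fit over the 12 arrays. Calls were made where the p of a gene, adjusted by Benjamini and Hochberg over all 10385 genes that passed a filter on dim probe sets, was under 0.05. Of the 59 genes 57 passed it, 33 of the large and 24 of the small subunit. The filter used the mean over all 12 arrays at a signal of 75.9. The others were mrpl-45, the homologue of a mammalian protein that docks the ribosome at the inner membrane, at 14.2 to 62.0 over the arrays, and mrps-31, at 3.12 to 42.4. They were not tested. mrpl-13 and mrpl-58 were read only by probe sets that also name F13G3.7 and osg-1, so they were not counted. Of the 57 genes, 44 were read by a plain probe set and 13 by an s-type one, which can bind transcripts of more than 1 gene. The array's genome build was not given in the sources used here, so no positions are printed.

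The arrays had a common trimmed mean of 500.1 to 500.2, and the mean signal of the 57 genes over the arrays ran from 441 to 3038 in the large and from 121 to 2704 in the small subunit. The spg-7 probe set was brighter on spg-7 RNAi than on control RNAi, at 14356 ± 7577 against 753 ± 302 in wild type and 17958 ± 8123 against 383 ± 68.5 in the mutant (SD, n = 3 each), so it does not check the knockdown. Nor do hsp-6 and hsp-60, which encode chaperones of the mitochondrion and are common reporters of its stress, named here after their values were seen. In wild type hsp-6 stood at 4076 ± 1366 on control RNAi, then 5458 ± 1692 with spg-7 RNAi, and hsp-60 at 5035 ± 389, then 3777 ± 1560 (SD, n = 3 each), and neither was called (adjusted p = 0.447 and 0.323, limma). The atfs-1 probe set, which is s-type, gave 411 ± 41.98 and 834 ± 219 in wild type and 438 ± 74.1 and 588 ± 31.5 in the mutant on control and spg-7 RNAi (SD, n = 3 each), and thus does not show the allele. All 10 germ line, 8 of 8 body wall muscle, 5 of 6 intestine and 7 of 8 neuron marker genes passed the filter. The worms were read whole, so fewer cells of a type and less RNA per cell cannot be told apart. One array stood apart for the ribosomal genes: their median log2 signal was 9.80 on wild-type spg-7 RNAi replicate 2, against 10.08 to 10.29 on the other 5 wild-type arrays and 9.82 to 10.03 on the 6 mutant arrays. For comparisons that use that array, the medians of the 57 genes are given with and without it. The spg-7 effect averaged over genotypes and the medians of parts of the family are given only with it.

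**Figure D1:**
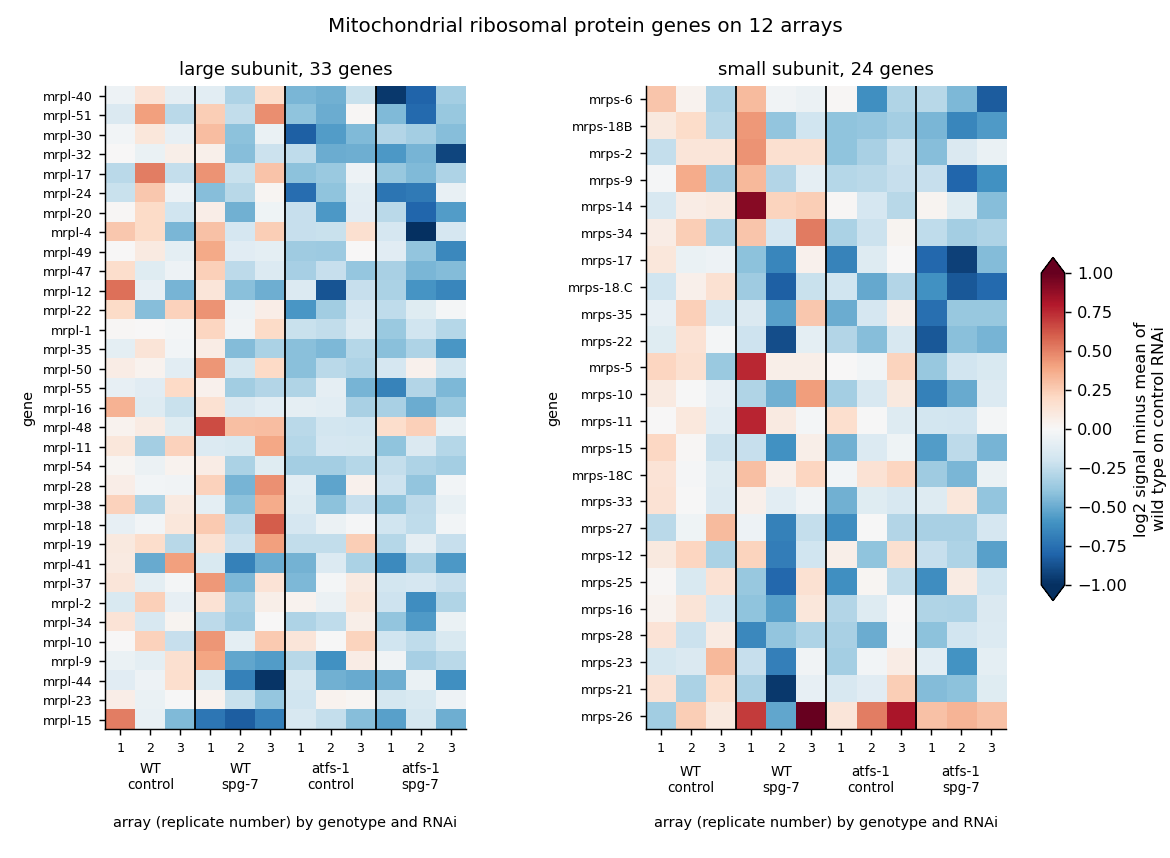
Each cell is the log2 signal of 1 gene on 1 array minus that gene's mean on wild-type control RNAi (colour scale in log2 units, ending at 1 in each direction), with the 33 large and 24 small subunit genes in rows and the 12 arrays in columns. Blue prevails in the 6 mutant columns, and the second wild-type spg-7 column is bluer than those beside it.

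In wild type, spg-7 RNAi was set against control RNAi to see whether the mitochondrial ribosome takes part in the stress response. None of the 57 genes was called (limma), where 4.73% of all genes tested were, 3.29% higher and 1.43% lower. At an unadjusted p under 0.05 there were 3 of 57, against 2090 of 10385. The median difference was -0.05 over the 57 genes and -0.04 over all genes, and 35 of 57 were negative, 61.4% against 53.1% of all genes. The large subunit had a median of -0.04 and the small subunit one of -0.13. The precision was enough to place the 95% interval inside a 2-fold change either way for 52 of the 57 genes, and inside 1.5-fold for 13. Among tissue markers, 9 of 10 germ line genes were negative in this comparison (median -0.40, 0 called). So were 8 of 8 body wall muscle genes (median -0.71, 1 called lower) and 78 of 97 cuticle collagens (median -0.97, 9 called lower). Of 11 oocyte and embryo markers 9 were positive (median 0.28, 0 called). So were 4 of 5 intestine genes (median 0.54, 1 called higher) and 5 of 7 neuron genes (median 0.08, 1 called higher). All 5 yolk genes were positive (median 1.95, 0 called), and 13 of 23 sperm genes were negative (median -0.07, 0 called). The part of these shifts in the result was not tested.

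The lowest difference in wild type belonged to mrpl-15, the counterpart of a bacterial protein of the large subunit's core. Its signals were 2086, 1387 and 1075 on control RNAi, then 887, 823 and 910.2 on spg-7 RNAi. All 3 spg-7 arrays lay below all 3 controls, and the controls were spread widely, which gave a log2 difference of -0.74 (SE 0.25, adjusted p = 0.117, limma).

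mrpl-44, whose protein carries an RNase III-like fold, gave 3562, 3723 and 4340.4 on control RNAi, then 3475, 2411 and 1953 on spg-7 RNAi. These groups did not overlap either, with the first spg-7 array just under the lowest control. The log2 difference was -0.61 (SE 0.24, adjusted p = 0.186, limma). The gene has 3 probe sets, and the dimmer ones did not repeat this separation: one gave 144 to 230 on control and 137 to 274 on spg-7 RNAi, the other 478 to 861 and 706 to 1393.

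mrps-18.C, one of 3 genes for the S18 protein of the small subunit on the array beside mrps-18B and mrps-18C, had signals of 1638, 1949 and 2093 on control RNAi, then 1475, 1069 and 1614 on spg-7 RNAi. The groups were separate by a narrow margin, with a log2 difference of -0.46 (SE 0.21, adjusted p = 0.251, limma). mrps-28 also stood lower without overlap, at 1015, 795 and 982 against 591, 703 and 749, a log2 difference of -0.45 (SE 0.22, adjusted p = 0.275, limma). Its dimmer probe set gave 492 to 691 on control and 355 to 561 on spg-7 RNAi. There the groups overlapped, with a log2 difference of -0.39 (SE 0.27). By their brightest probe sets, mrpl-15, mrpl-44, mrps-18.C and mrps-28 were the only 4 of the 57 whose spg-7 arrays all lay below the controls in wild type. Of all genes 8.48% did so.

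At the other end stood mrps-14, a protein of the small subunit's head, with 2359, 2778 and 2799.6 on control RNAi, then 4947, 3081 and 3125 on spg-7 RNAi. The first spg-7 array was far above the other two, and the groups did not overlap, with a log2 difference of 0.46 (SE 0.23, adjusted p = 0.285, limma). mrpl-48, which in mammals sits at the central protuberance of the large subunit, went from 1225, 1269 and 1102 to 1876, 1469.9 and 1480.2, also without overlap, a log2 difference of 0.42 (SE 0.19, adjusted p = 0.245, limma).

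mrps-26 lay near the filter, at 76.8, 115 and 104.4 on control RNAi, then 158, 67.9 and 213 on spg-7 RNAi. Its spg-7 arrays lay on both sides of the controls, and the log2 difference of 0.43 had an SE of 0.40 (adjusted p = 0.603, limma). With mrps-2, which gave 628, 803 and 804 against 1007, 828 and 827 and a log2 difference of 0.26 (SE 0.21), 3 genes stood higher without overlap, where 9.99% of all genes did so. Without replicate 2 of wild-type spg-7 RNAi the median difference of the 57 genes was 0.06 and 22 were negative, so the sign of this median rested on that array. With other arrays left out in turn it ran down to -0.14. When arrays were weighted by their fit, 5 of the 57 genes were called lower in wild type (mrpl-41, mrpl-44, mrps-18.C, mrps-21 and mrps-23, limma adjusted p = 0.0194 to 0.0391). The same fit called 1785 of all 10385 genes in either direction. The weight of wild-type spg-7 replicate 2, the array that stood apart, was 1.57, against 0.434 and 0.262 for replicates 1 and 3. Among the controls replicate 3 had 3.76, against 0.296 and 0.414 for replicates 1 and 2. How far these calls rest on either array was not tested.

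In the atfs-1 mutant none of the 57 genes was called on spg-7 RNAi against control RNAi, where 1.17% of all genes were, 0.944% higher and 0.221% lower. No member reached an unadjusted p under 0.05, against 983 of 10385 genes (limma). The median difference was -0.13, with 45 of 57 negative (78.9%, against 51.3% of all genes, whose median was -0.02). The small subunit stood at -0.20 and the large at -0.09. Beside this, all 10 germ line markers and all 11 oocyte and embryo markers were negative in the same comparison, with medians of -0.49 and -1.14 and 0 called. Intestine and neuron markers were positive in 4 of 5 and 5 of 7 (medians 0.27 and 0.24, 0 called). The part of these shifts in the result was not tested. The median of the 57 genes came to -0.06 without mutant control replicate 3. The 95% interval lay within 2-fold for 54 of the 57 genes.

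The lowest value was that of mrps-17, a protein of the small subunit's body, with 536, 779.9 and 856 on control RNAi, then 494, 446 and 632 on spg-7 RNAi. The spg-7 arrays were lower on the whole but overlapped the controls, and the log2 difference was -0.45 (SE 0.26, adjusted p = 0.618, limma). mrps-18.C again stood low without overlap, at 1644, 1322 and 1541 against 1238, 1047 and 1100.4, a log2 difference of -0.41 (SE 0.21, adjusted p = 0.580, limma). Its difference was thus of like size in both genotypes, and the difference between the 2 responses was 0.05 (95% interval -0.61 to 0.71).

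mrpl-2, which lies beside the site of peptide bond formation, had signals of 1087, 1021 and 1149 on control RNAi, then 919.7, 692 and 863 on spg-7 RNAi. The groups did not overlap, and the log2 difference was -0.41 (SE 0.22, adjusted p = 0.593, limma). In wild type the same gene gave -0.04.

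On the positive side, mrpl-48 went from 993, 1056 and 1043 to 1349, 1413 and 1135 in the mutant. These groups did not overlap, as in wild type, and the log2 difference was 0.33 (SE 0.19, adjusted p = 0.618, limma). mrpl-30 gave 422, 505 and 549 against 609, 588 and 554, separate by a narrow margin, a log2 difference of 0.25 (SE 0.23). mrpl-22, a protein of the exit tunnel wall, gave 644, 757 and 857 against 808, 884 and 952, which overlapped, a log2 difference of 0.23 (SE 0.24).

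Without overlap, 7 of the 57 genes stood lower (mrpl-2, mrpl-10, mrpl-16, mrps-5, mrps-18B, mrps-18C and mrps-18.C) and 3 higher (mrpl-30, mrpl-48 and mrpl-50) in the mutant response. Among all genes these shares were 12.7% and 13.1%. The 2 responses come from separate arrays. mrpl-22, mrpl-48, mrpl-50 and mrps-2 were positive in both, and 27 genes were negative in both, 47.4% against 33.7% of all genes.

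The test of the difference between the 2 responses, mutant minus wild type, called 0 of 10385 genes (0%) and none of the 57. At an unadjusted p under 0.05 there were 647 genes and 1 member, mrps-18C (limma). Its signals in wild type were 1529, 1375 and 1269.7 on control RNAi, then 1709, 1435 and 1612 on spg-7 RNAi. In the mutant they were 1358, 1536 and 1608, then 1082, 1013 and 1325. The wild-type arrays overlapped and the mutant ones did not, and the difference of responses was -0.59 (SE 0.27, adjusted p = 0.797). The median over the 57 genes was -0.09, but its sign rested on single wild-type spg-7 arrays: it was 0.026 without replicate 1, -0.19 without replicate 2 and 0.018 without replicate 3. The SE of single genes had a median of 0.33. The 95% interval lay within 2-fold for 34 of 57 genes, so a 2-fold difference in response was not excluded by its interval for the other genes.

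Mutant and wild type were next compared on the same RNAi, to see how the ribosomal genes stand when ATFS-1 is mutated. On control RNAi the mutant lay below wild type in 51 of the 57 genes, 89.5% against 52.8% of all genes. The median log2 difference was -0.26, against -0.02 over all genes. No single gene was called: 0 of 10385 genes passed (0%), 1113 having an unadjusted p under 0.05, of which 1 was a member (limma). The large subunit had a median of -0.27 with 31 of 33 genes negative, and the small subunit one of -0.21 with 20 of 24. Scaling the arrays to the hybridisation controls turned the median to 0.20, where the median of all genes was 0.43, so that the ribosomal genes again lay below it.

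mrpl-30 had the lowest difference on control RNAi, with 729.7, 806 and 702 in wild type and 422, 505 and 549 in the mutant. All mutant arrays were well below all wild-type arrays. The log2 difference was -0.61 (SE 0.23, adjusted p = 0.434, limma), and its probe set is s-type.

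mrpl-24, another gene of the exit tunnel region, gave 463, 651 and 521 in wild type and 319, 407 and 500.4 in the mutant, so that the third mutant array lay among the wild-type ones. The log2 difference was -0.42 (SE 0.28, adjusted p = 0.649, limma). mrpl-32, a short protein whose maturation is known in yeast and mouse to depend on the same family of inner membrane proteases as spg-7, gave 1691, 1614 and 1763 against 1418, 1196 and 1202. These groups did not overlap, and the log2 difference was -0.41 (SE 0.20, adjusted p = 0.496, limma).

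The 3 highest genes on control RNAi lay close to 0 or near the filter. mrps-26 gave 106, 139 and 171 in the mutant against 76.8, 115 and 104.4, a log2 difference of 0.48 (SE 0.40). mrpl-10, which holds the stalk that recruits translation factors, gave 1181, 1083 and 1271 against 1086, 1272 and 928, a log2 difference of 0.11 (SE 0.21). mrps-18C stood at 0.11 (SE 0.19). Its mutant and wild-type arrays, given above, overlapped, as did those of the other two.

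Without overlap, 12 of the 57 genes were lower in the mutant on control RNAi, where 5.79% of all genes were, and 0 were higher, where 11.8% of all genes were. The 12 were mrpl-1, mrpl-30, mrpl-32, mrpl-35, mrpl-40, mrpl-44, mrpl-47, mrpl-48, mrpl-50 and mrpl-54 of the large subunit and mrps-18B and mrps-22 of the small. Differences of this size remained within the error of single genes: the 95% interval lay within 2-fold for 53 of 57 and had its upper end below 0 for 1, mrpl-30. The dimmer probe sets of mrpl-44 stood at -0.31 and 0.32, so its place among the 12 rests on the brightest.

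**Figure D2:**
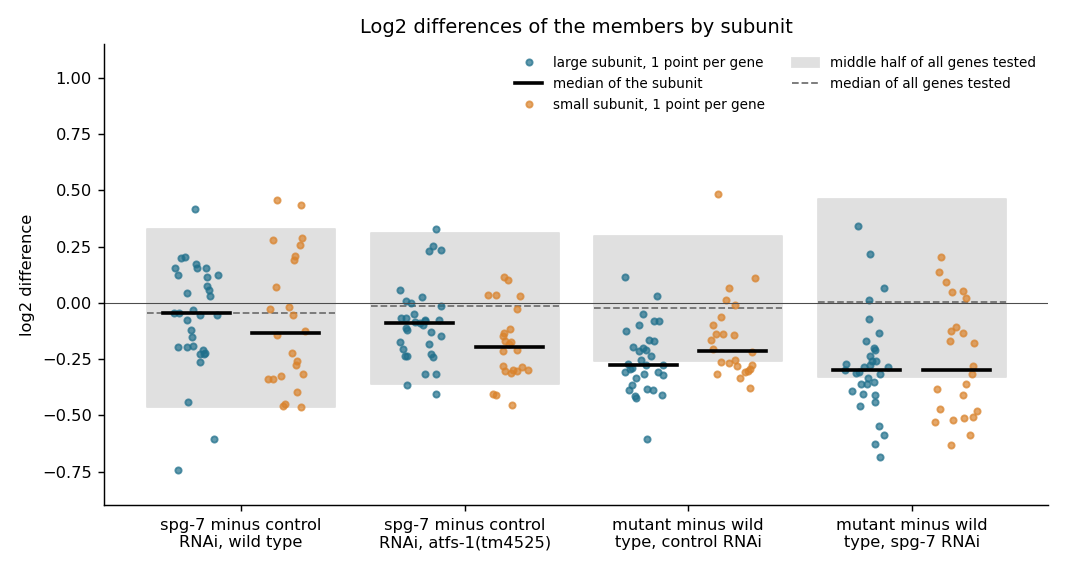
Log2 differences of the 33 large and 24 small subunit genes in 4 comparisons (1 point per gene, thick bars at the subunit medians), over a grey box from the lower to the upper quartile of all genes tested and their dashed median. Both subunits' medians lie below the dashed line in both mutant comparisons, at -0.27 and -0.21 with control RNAi and -0.30 and -0.30 with spg-7 RNAi.

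On spg-7 RNAi the mutant lay below wild type in 47 of the 57 genes, 82.5% against 49.7% of all genes. The median was -0.30, at -0.30 in either subunit, against 0.00 over all genes. None of the 57 genes was called, where 0.0963% of all genes were (10 genes, 0.00963% higher and 0.0867% lower), and 9 of 57 had an unadjusted p under 0.05, against 1599 of 10385 (15.8% against 15.4%, limma). The size of this median depended on single wild-type arrays: it was -0.46 without replicate 2, with 53 of 57 negative, but -0.19 without replicate 3 and -0.21 without replicate 1.

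mrpl-51 had the lowest value, with 2144, 1523 and 2491 in wild type and 1329, 1053 and 1392 in the mutant. The groups did not overlap, though the second wild-type array came near the mutant. The log2 difference was -0.69 (SE 0.26, adjusted p = 0.241, limma), a signal 1.61 times lower.

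mrps-14 gave 4947, 3081 and 3125 in wild type and 2692, 2427 and 1967 in the mutant, all mutant arrays being lower. The log2 difference was -0.63 (SE 0.23, adjusted p = 0.219, limma), the smallest adjusted p of the family in this comparison. On control RNAi the same gene stood at -0.14. mrpl-40, another protein of the central protuberance in mammals, gave 929, 805 and 1129 against 509.9, 571 and 786, again without overlap. Its log2 difference was -0.63 (SE 0.23, adjusted p = 0.228, limma), after -0.39 on control RNAi.

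The 3 highest genes were among the 4 that lay below the controls without overlap in the wild-type response, with which this comparison shares the wild-type spg-7 arrays. mrpl-15 gave 1002, 1294 and 1040.3 in the mutant against 887, 823 and 910.2, higher without overlap, a log2 difference of 0.34 (SE 0.25, adjusted p = 0.525, limma). mrpl-44 gave 2755, 3683 and 2522 against 3475, 2411 and 1953, a log2 difference of 0.22 (SE 0.24). Its dimmer probe sets stood at -0.19 and -0.53 in this comparison, so its place rests on the brightest. mrps-28 gave 697, 812 and 840.5 against 591, 703 and 749, a log2 difference of 0.20 (SE 0.22), beside 0.10 (SE 0.27) by its dimmer probe set. The groups of mrpl-44 and of mrps-28 overlapped.

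Without overlap, 18 of the 57 genes were lower in the mutant on spg-7 RNAi, 10 of the large and 8 of the small subunit, where 7.29% of all genes were. Only mrpl-15 was higher, where 15.7% of all genes were. The 18 were mrpl-1, mrpl-4, mrpl-10, mrpl-16, mrpl-17, mrpl-32, mrpl-40, mrpl-47, mrpl-48, mrpl-51, mrps-2, mrps-5, mrps-6, mrps-11, mrps-14, mrps-18B, mrps-18C and mrps-34. mrps-5, chosen after its values were seen because of its known role in worm lifespan, gave 3490.3, 2155 and 2151 in wild type and 1592, 1814 and 1865 in the mutant. Its log2 difference was -0.53 (SE 0.24, adjusted p = 0.323, limma) there, beside 0.06 (SE 0.24) with control RNAi.

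**Figure D3:**
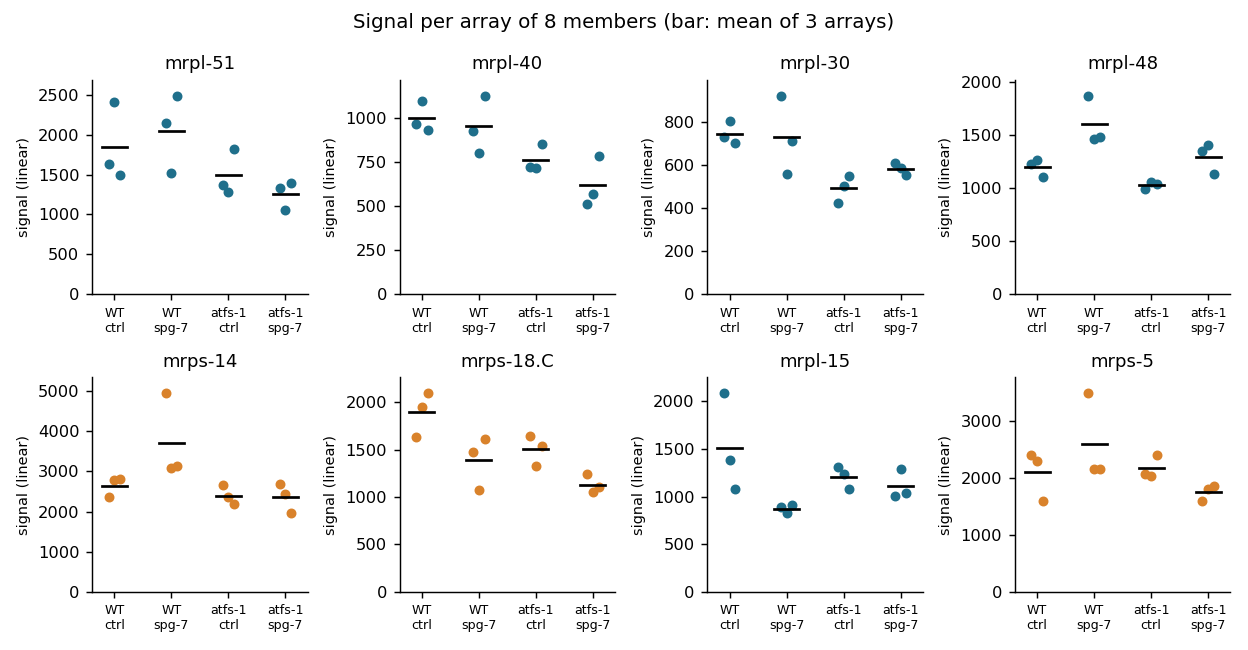
Linear signal of 8 genes on each array, by group, with a bar at the mean of 3 arrays and axes from 0 (blue, large subunit; orange, small subunit). mrpl-40 and mrpl-51 are lower in the mutant than in wild type on spg-7 RNAi without overlap, mrpl-48 is higher on spg-7 RNAi in both genotypes, and mrps-14 and mrps-5 each have 1 bright array on wild-type spg-7 RNAi.

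The 2 genotype comparisons use separate arrays. In both of them 41 of the 57 genes were negative, 71.9% against 30.2% of all genes, and 0 were positive in both. By subunit these were 27 of 33 large subunit genes (81.8%) and 14 of 24 small subunit genes (58.3%). The other 16 genes differed in sign between the RNAi treatments: mrpl-2, mrpl-9, mrpl-10, mrpl-15, mrpl-23, mrpl-44, mrps-5, mrps-11, mrps-16, mrps-18C, mrps-21, mrps-23, mrps-25, mrps-26, mrps-27 and mrps-28. The size of a gene's difference on one RNAi said little of its size on the other, with r = 0.00 across the 57 genes, given as a description since genes of one array are not independent.

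In a count added after the data had been seen, 6 genes stood lower without overlap in both comparisons: mrpl-1, mrpl-32, mrpl-40, mrpl-47, mrpl-48 and mrps-18B. That is 6 of 57 where 0.857% of all genes did so, and 0 of 57 stood higher in both, where 6.24% of all genes did. mrpl-1, whose bacterial counterpart forms the stalk where spent tRNA leaves, was the only one whose 6 mutant arrays all lay below all 6 wild-type arrays, as 0.347% of all genes did. None had all its mutant arrays above, where 0.51% of all genes did. Its wild-type signals were 1518, 1505 and 1485 on control and 1748, 1465 and 1716 on spg-7 RNAi, and its mutant signals 1290.3, 1270.2 and 1367, then 1161, 1307 and 1235. The groups were tight, and the log2 difference was -0.20 (SE 0.17, adjusted p = 0.775, limma) on control RNAi, beside -0.41 (SE 0.17, adjusted p = 0.285) with spg-7 RNAi. It was singled out after its values were seen.

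**Figure D4:**
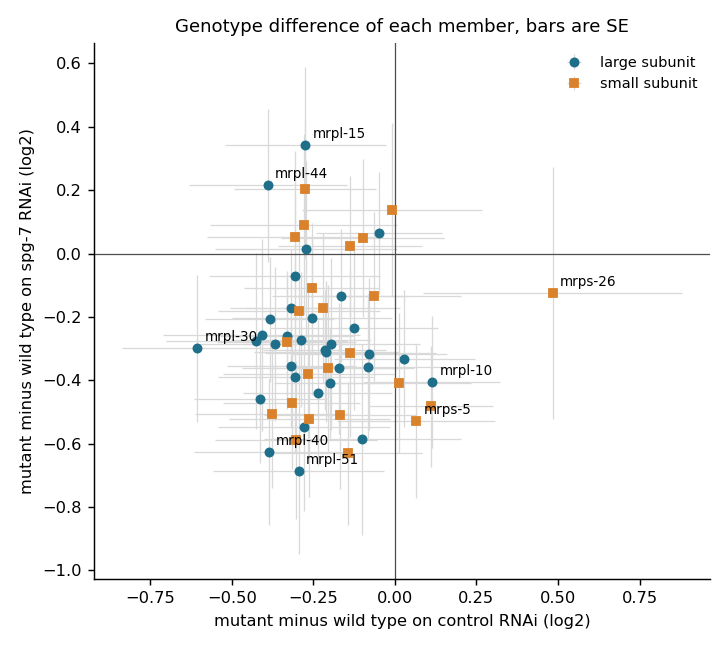
Mutant minus wild type (log2) of each of the 57 genes on control RNAi (x axis) against spg-7 RNAi (y axis), with SE bars (blue circles, large subunit; orange squares, small subunit). The lower left field holds 41 genes, the upper right field 0.

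A comparison added after the data had been seen averaged the genotype difference over both RNAi treatments in the same model, 6 arrays against 6. The median was -0.25, with 53 of 57 genes negative (93.0%, against 53.7% of all genes, whose median was -0.03), and it was -0.32 without wild-type spg-7 replicate 2. None of the 57 was called, where 0.944% of all genes were, 0.847% higher and 0.0963% lower. There were 12 with an unadjusted p under 0.05, all negative (21.1% against 17.6% of all genes, limma). They were mrpl-1, mrpl-17, mrpl-30, mrpl-32, mrpl-40, mrpl-47, mrpl-51, mrps-2, mrps-6, mrps-9, mrps-14 and mrps-18B. mrpl-40 came nearest to the threshold, at -0.51 (SE 0.16, adjusted p = 0.111). The 95% interval lay within 2-fold for all 57 genes and within 1.5-fold for 25. Weighting the arrays led to calls for mrpl-40 and mrps-2 (adjusted p = 0.0237 and 0.0178, limma), among 1357 of 10385 genes called in either direction. The spg-7 effect averaged over both genotypes, also added, had a median of -0.12 and called none of the 57, where 7.13% of all genes were, 4.97% higher and 2.16% lower. Under array weights 9 of the 57 were called there (adjusted p = 0.00701 to 0.0499, limma), mrpl-48 higher and mrpl-41, mrpl-44, mrpl-55, mrps-17, mrps-18.C, mrps-21, mrps-22 and mrps-23 lower. The count over all genes in that weighted fit was not recorded, so these 9 have no share to be set against. These weights favoured wild-type spg-7 replicate 2 (1.57) over replicates 1 and 3 (0.434 and 0.262). They also favoured wild-type control replicate 3 (3.76) over replicates 1 and 2 (0.296 and 0.414), and mutant spg-7 replicate 1 (5.49) over replicates 2 and 3 (0.860 and 0.763).

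Levels of tissue markers differed between the genotypes as well, with none called in either genotype comparison. All 23 sperm protein genes (msp-) tested had positive differences on either RNAi, with medians of 1.03 and 1.01 (smallest adjusted p = 0.503 and 0.349, limma). On control RNAi wild-type replicate 1 stood apart: the log2 of their summed signal was 16.44 there, while the group medians were 18.92 in wild type and 18.88 in the mutant. On spg-7 RNAi it ran from 17.80 to 18.42 in wild type and from 18.83 to 18.97 in the mutant. All 11 oocyte and embryo markers were negative on spg-7 RNAi, at a median of -0.98, the summed log2 signal running from 12.15 to 16.10 in wild type and 12.17 to 14.70 in the mutant. On the same RNAi 79 of 97 cuticle collagens and 8 of 8 body wall muscle markers were positive, with medians of 0.74 and 0.41. Of the collagens 40 had an unadjusted p under 0.05, where 15.4% of all genes did (smallest adjusted p = 0.0804, limma). The 5 yolk genes were all positive on control RNAi (median 2.11) and all negative on spg-7 RNAi (median -0.82), their summed log2 signal on wild-type control RNAi having a minimum of 9.78 and a median of 16.11. The log2 ratio of the actin 3′ to 5′ control probe sets, a sign of RNA quality, ran in wild type from 0.43 to 0.62 with control and 0.82 to 0.85 with spg-7 RNAi, in the mutant from 0.41 to 0.48 and 0.54 to 0.69. The part of these shifts in the lower ribosomal signals was not tested.

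Large and small subunit were compared in each comparison by their medians, without a test since genes are not replicates. Large minus small was 0.09 in the wild-type response, 0.11 in the mutant response, 0.08 in the difference of responses, -0.06 for genotype on control RNAi and -0.00 with spg-7 RNAi. Measured per array, large minus small was 0.08 ± 0.12 on wild-type control, 0.05 ± 0.22 on wild-type spg-7, 0.08 ± 0.16 on mutant control and 0.01 ± 0.07 on mutant spg-7 RNAi (log2, SD, n = 3 each). The group means thus ran from 0.01 to 0.08, beside SDs of 0.07 to 0.22. No clear shift of one subunit against the other was seen, and none was tested. Genes that stood lower in the mutant without overlap numbered 10 of 33 and 2 of 24 in the large and small subunit on control RNAi (5.79% of all genes), and 10 of 33 and 8 of 24 with spg-7 RNAi (7.29%).

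A split added after the data had been seen took the gene numbers as a guide to origin, in the family's shared nomenclature. Numbers up to 36 in the large and up to 21 in the small subunit were put in a bacterial class, the rest in a mitochondrial class. By that rule 36 genes fell in the first and 21 in the second. The origin of single genes was not checked, so a gene of the mitochondrial class can still have a bacterial counterpart. In the large subunit the first class held mrpl-1, mrpl-2, mrpl-4, mrpl-9, mrpl-10, mrpl-11, mrpl-12, mrpl-15, mrpl-16, mrpl-17, mrpl-18, mrpl-19, mrpl-20, mrpl-22, mrpl-23, mrpl-24, mrpl-28, mrpl-30, mrpl-32, mrpl-34 and mrpl-35. In the small subunit it held mrps-2, mrps-5, mrps-6, mrps-9, mrps-10, mrps-11, mrps-12, mrps-14, mrps-15, mrps-16, mrps-17, mrps-18B, mrps-18C, mrps-18.C and mrps-21. The mitochondrial class held mrpl-37, mrpl-38, mrpl-40, mrpl-41, mrpl-44, mrpl-47, mrpl-48, mrpl-49, mrpl-50, mrpl-51, mrpl-54 and mrpl-55, with mrps-22, mrps-23, mrps-25, mrps-26, mrps-27, mrps-28, mrps-33, mrps-34 and mrps-35.

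The medians of the bacterial and mitochondrial classes were -0.20 and -0.28 for genotype on control RNAi, beside -0.32 and -0.20 with spg-7 RNAi, so their order turned. In the small subunit the classes stood furthest apart on spg-7 RNAi, at -0.41 with 13 of 15 negative and -0.11 with 5 of 9 negative. In the wild-type response the same classes stood at -0.05 and -0.32. These 2 comparisons share the wild-type spg-7 arrays. Among the proteins of the stalk, mrpl-10, mrpl-11 and mrpl-12 stood at 0.11, -0.21 and -0.41 on control RNAi, and with spg-7 RNAi at -0.41, -0.31 and -0.26. Around the exit tunnel mrpl-4, mrpl-22, mrpl-23 and mrpl-24 stood at -0.10, -0.37, -0.05 and -0.42 on control RNAi, and with spg-7 RNAi at -0.59, -0.29, 0.07 and -0.28. mrps-12, the decoding site protein, stood at -0.06 and -0.14.

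Across the 12 arrays the log2 signals of 2 ribosomal genes had a median r of 0.42, against -0.01 for pairs of all genes tested and 0.89 for cytosolic ribosomal protein genes. Pairs within the large subunit had 0.45, within the small 0.39 and across the subunits 0.42. With group means removed the median was 0.32. These pairs share their arrays and scaling, and the values are a description. mrps-2 and mrpl-4 are next to each other among the genes of the RefSeq assembly WBcel235, the only such pair. mrpl-4 gave 905, 859, 548 and 921, 671, 891 in wild type and 640.0, 645, 839 and 668, 364, 669 in the mutant, on control and spg-7 RNAi. Its genotype differences were -0.10 (SE 0.30) and -0.59 (SE 0.30), beside -0.32 and -0.47 (SE 0.21 each) for mrps-2. A dimmer, s-type probe set of mrpl-4 stood at -0.28 and -0.34 (SE 0.22 each), so the gap between the RNAi treatments rests on the brightest. mrpl-4 and mrps-2 were singled out after their values were seen.

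Other parts of the translation machinery were read from further lists. Of 9 mitochondrial translation factor genes tested, 2 rose and 0 fell in wild type on spg-7 RNAi, where 3.29% of all genes rose, and 0 were called in the mutant. tsfm-1, the exchange factor of the mitochondrial elongation factor Tu, gave 1429.9, 1905 and 1431 on control RNAi, then 4616, 3827 and 3052 on spg-7 RNAi in wild type. The groups lay far apart, and the log2 difference was 1.26 (SE 0.23, adjusted p = 0.00921, limma). In the mutant the signals were 1591, 1375 and 1369, then 2149, 2083 and 1512, a log2 difference of 0.39 (SE 0.23, adjusted p = 0.618). The difference of responses was -0.87 (SE 0.32, adjusted p = 0.714) and was not called.

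mttu-1, which modifies mitochondrial tRNAs, gave 131, 169 and 124 against 278, 496 and 386 in wild type, again without overlap, a log2 difference of 1.42 (SE 0.28, adjusted p = 0.0150, limma). In the mutant it gave 144, 159.8 and 178 against 225, 192 and 233, a log2 difference of 0.43 (SE 0.28, adjusted p = 0.655). The difference of responses was -0.99 (SE 0.39, adjusted p = 0.716). The calls of tsfm-1 and mttu-1 were lost when only the wild-type arrays were fitted (adjusted p = 0.113 and 0.162) and when the arrays were scaled to the hybridisation controls (0.104 and 0.180, limma). That of mttu-1 was also lost without wild-type control replicate 3 (0.0621) or wild-type spg-7 replicate 2 (0.0677, limma). dap-3, which encodes a GTP-binding protein of the small subunit under another name, stood at -0.04 in the wild-type response and at -0.29 and -0.42 for genotype on control and spg-7 RNAi.

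Of 5 genes for mitochondrial DNA maintenance and transcription and 11 for mitochondrial aminoacyl-tRNA synthetases, 0 were called in any of the 5 comparisons (smallest adjusted p = 0.109 and 0.243 in wild type, limma). Among 65 nuclear genes of the respiratory chain, which holds the products of the mitochondrial ribosome, 1 fell in wild type and 0 rose. Of all genes 1.43% fell and 3.29% rose, so this count lies near the share over all genes. The gene that fell was hpo-18, a subunit of the ATP synthase, at 13321 ± 1497 and 8516 ± 670.1 on control and spg-7 RNAi (SD, n = 3 each). Its log2 difference was -0.64 (SE 0.16, adjusted p = 0.0478, limma). With 1 array left out in turn, hpo-18 passed only without wild-type control replicate 2 and missed the threshold in the other 11 fits (adjusted p = 0.0427 to 0.166 over the 12, limma). The chain's median for genotype was -0.17 on control and 0.03 on spg-7 RNAi.

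None of the 74 cytosolic ribosomal protein genes tested was called in any of the 5 comparisons (limma, with 2, 0, 1, 18 and 0 at an unadjusted p under 0.05). Of all genes 20.1%, 9.47%, 6.23%, 10.7% and 15.4% had such a p, in the same order. Their medians were -0.24 and 0.19 in the wild-type and mutant responses, and -0.47 and -0.02 for genotype on control and spg-7 RNAi, beside -0.05, -0.13, -0.26 and -0.30 for the mitochondrial ribosome. On control RNAi all 74 were negative. On spg-7 RNAi 43 of 74 were, so the lower mitochondrial signals there did not come with a like shift of the cytosolic ribosome. The 9 mitochondrial translation factor genes had a lower median there than the mitochondrial ribosome, at -0.64 with 8 of 9 negative and 0 called. Of them 5 had an unadjusted p under 0.05, against 15.4% of all genes (limma). On control RNAi their median was -0.20, with 6 of 9 negative.

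**Figure D5:**
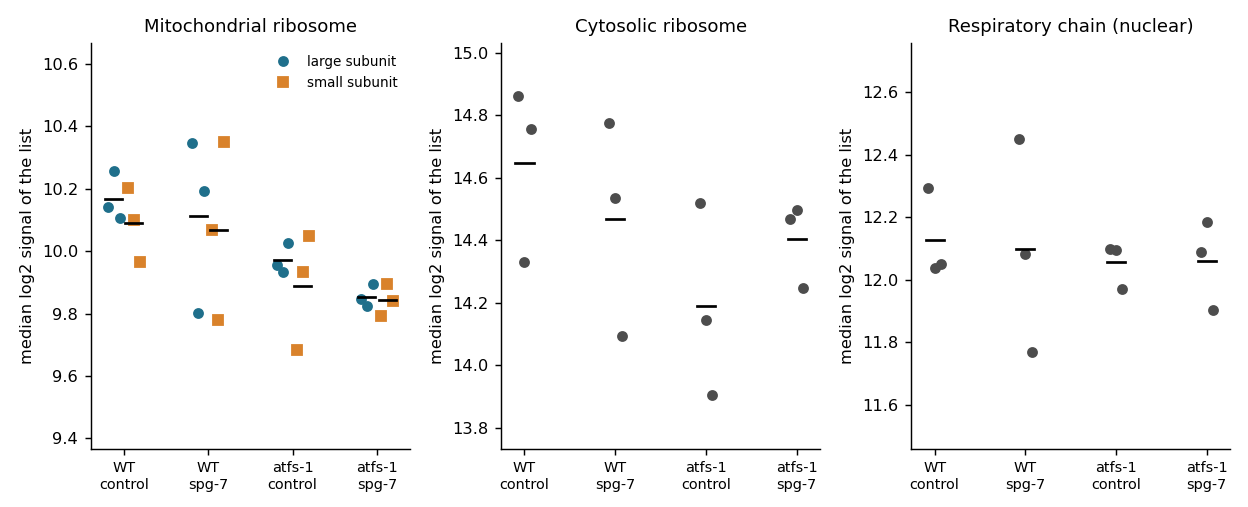
Median log2 signal of each list on each array, by group (points, 1 per array; bars, mean of 3 arrays; y axes do not start at 0 and differ between panels). The bars of both mitochondrial ribosomal subunits lie lowest on mutant spg-7 RNAi, and the cytosolic ribosomal and respiratory chain lists do not follow the same order.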

How the data were processed

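Per the labels' protocols, total RNA of whole L4 worms was turned into biotin-labelled cRNA for Affymetrix arrays of C. elegans. The deposited values are linear probe-set intensities, and the submitters' processing notes name MAS5, whose version and settings are not given in the sources used here. Such signals are noisy when dim.

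Of 22625 probe sets, 77 controls and those naming no gene or several were set aside. Values were floored at 1 (0.509% of them) and taken to log2, the dimmest 40% were left out, and each gene was read by its brightest probe set. A model with 1 mean per group over all 12 arrays was fitted in limma 3.58.1 (R 4.3.3, with version 1.17.8 of the package data.table) with a variance trend, 8 residual and 11.7 total degrees of freedom. All 59 symbols matched RefSeq. The fit was tested on simulated data. Figures used matplotlib 3.10.9 in Python 3.11.15. With 3 arrays a group their number limits the precision.

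Of the comparisons, same-numbered replicates had correlated deviations in all 3 pairs only in the mutant response (r = 0.29 to 0.53). The main model did not pair them in any comparison, the mutant response included. A fit with a replicate block is given below. Values per array were given by rule for the 3 lowest and 3 highest members of each comparison and called genes of other lists. Those of mrps-2, mrps-5, mrps-28 in wild type, mrpl-1 and mrpl-4 were added after they were seen. The members, lists and comparisons were chosen with earlier results of these data known.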

Additional observations from a re-analysis of the deposited data

How the results depend on the processing

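In the 5 comparisons and the averaged genotype comparison none of the 57 genes was called under any alternative tried but array weights, which called 5 lower in wild type, 1 lower in the mutant (mrps-18C, adjusted p = 0.0370, limma) and 2 lower for averaged genotype. Over all 10385 genes array weights called 1785, 1532 and 1357 in these comparisons, in that order. In the averaged spg-7 effect, run under array weights alone, they called 9 of the 57 (8 lower, 1 higher), with the count over all genes not recorded. The estimate of these weights stopped before it converged. It favoured wild-type spg-7 replicate 2 (1.57) over replicates 1 and 3 (0.434 and 0.262), and wild-type control replicate 3 (3.76) over replicates 1 and 2 (0.296 and 0.414). Against the median of all genes, the genotype median of the members stayed below 0 in every alternative, at -0.27 to -0.17 on control RNAi, -0.48 to -0.13 on spg-7 RNAi and -0.31 to -0.15 averaged, while that of the wild-type response ran from -0.15 to 0.13. Several alternatives could not move this distance and so do not test it. They include centring or scaling whole arrays, the replicate block, the fit without a variance trend and the stricter threshold. Centring each array on its median gave -0.38, -0.53 and -0.42 for the genotype medians on control RNAi, on spg-7 RNAi and averaged. It turned mrps-18C to -0.015 and mrpl-10 to -0.011 on control RNAi, and mrps-28 to -0.024 and mrpl-44 to -0.013 on spg-7 RNAi. Scaling to the hybridisation controls gave -0.28 and -0.91 for the wild-type and mutant responses, -0.63 for their difference, 0.20 for genotype on control RNAi and -0.062 averaged. It turned mrpl-22, mrpl-30 and mrpl-48 to -0.54, -0.52 and -0.44 in the mutant response and mrpl-24 and mrpl-32 to 0.030 and 0.042 on control RNAi. The median of all genes moved as well there, by construction. Averaging a gene's probe sets turned mrpl-44 to -0.17 on spg-7 RNAi. Array weights turned mrps-26 in wild type to -0.18 and the median difference of responses to 0.068, and leaving out wild-type control 1 and spg-7 3 together turned mrps-26 to -0.083. Leaving out wild-type control 1 and spg-7 2 together, added after seeing the data, gave -0.24 for the difference of responses. The cause of these moves was not tested. With 1 array left out in turn, the median ran from -0.14 to 0.06 in wild type, -0.19 to -0.061 in the mutant, -0.19 to 0.03 for their difference, -0.30 to -0.20 and -0.46 to -0.19 for genotype on control and spg-7 RNAi and -0.32 to -0.22 averaged. Large minus small ran from -0.093 to 0.19 in the difference of responses. Genes called numbered 491 in the wild-type response (84 to 1785 over the alternatives), 121 (31 to 1532) in the mutant, 0 (0 to 96) for the difference, 0 (0 to 519) and 10 (0 to 738) for genotype and 98 (0 to 1357) averaged. Over all groups same-numbered replicates had r = -0.66 to 0.66 (median 0.12), and only in the mutant response was every pair over 0.1. A replicate block left 0 members called, 106 genes called in the mutant response and 1 in the averaged genotype comparison, and the medians at -0.05, -0.13, -0.09, -0.26 and -0.30.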
